A study of Rattus norvegicus with 10 samples.

Results

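The regulators of G-protein signalling (RGS) examined here were Rgs1, Rgs2, Rgs3, Rgs4, Rgs5, Rgs7, Rgs8, Rgs9, Rgs10 and Rgs16, in the lumbar spinal cord of rats made tolerant to morphine. Members were found by the RefSeq accession of each mRNA probe, and 9 of the 10 genes had a probe among the 15313 mRNA accessions on the array. No probe matched Rgs16, which was not analysed here. Every one of the 9 was represented by 1 probe in 1 spot per array, so no value below has a repeat within an array, and all 9 were well above background on all 10 arrays.

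The morphine tolerance (MT) group comprised 5 rats given 10 μg of morphine in 10 μl into the intrathecal space, 2 times a day for 7 days, and the normal saline (NS) group 5 rats given 10 μl of saline on the same schedule. All were male Sprague Dawley rats of 240 to 260 g and none carried a genetic modification in the labels. The lumbar enlargement was taken after a last injection that both groups received, so MT describes cords with recent morphine exposure and not withdrawal. RNA of each rat was labelled by random priming with Cy3 and hybridized to 1 one-colour array carrying lncRNA and mRNA probes, and the MT rats are numbered 1 to 5 and the NS rats 6 to 10 as in the labels.

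Opioid receptors act through heterotrimeric G proteins of the inhibitory class. The GTP-bound alpha subunit and the released beta-gamma dimer inhibit adenylyl cyclase, open inwardly rectifying potassium channels and close calcium channels, and signalling ends when the alpha subunit hydrolyses its GTP. RGS proteins bind the active alpha subunit through a shared RGS domain and speed this hydrolysis, which is why they have been studied in neurons as brakes on opioid responses. The R4 subfamily (Rgs1, Rgs2, Rgs3, Rgs4, Rgs5, Rgs8 and Rgs16) holds mostly small proteins with little beside the RGS domain, the R7 subfamily (Rgs7 and Rgs9) needs the beta subunit Gnb5 as a partner, and Rgs10 belongs to the R12 subfamily.

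Levels are quantile-normalized log2 intensities, and differences are log2 fold changes of MT minus NS from limma with Benjamini-Hochberg adjustment over all 20283 RNAs tested. Levels are compared between rats for 1 probe and never between probes. A gene met the study's criteria, as used here, when its linear fold exceeded 1.5 and its unadjusted P was under 0.05. Of 28 marker genes of neurons, motor neurons, oligodendrocytes and astrocytes with a probe, 27 were well above background on all 10 arrays. So were 11080 of the 15313 mRNA accessions, so this detection cannot tell the tissue of origin. Arrays with a shared scan time were taken as 1 slide. Slide 1 then held only MT rats (1, 3, 4 and 5), slide 2 held MT rat 2 beside NS rats 6, 7 and 10, and slide 3 held only NS rats (8 and 9). With the slide as a fixed block, slides 1 and 3 therefore add nothing to the difference between the groups. Every fixed block difference below is that of MT rat 2 against NS rats 6, 7 and 10, and rests on 1 MT rat. The share of spots well above background was 63.8% and 58.6% on slide 3, against 77.4% to 83.9% on the other arrays, so values without those rats are also given for genes whose difference they moved by over 1.5 times. The labels number the rats but do not say that each RNA was prepared on its own, so the p values measure the spread between these 10 arrays.

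Of the 9 RGS mRNAs, Rgs1 alone met the study's criteria, and it was lower in MT. Among the 13372 mRNAs tested, 0.987% met the criteria with a lower level in MT, 1.61% with a higher level and 2.59% in either direction, so the 1 of 9 describes Rgs1 and not the family. With the 75th percentile of each array as the scale in place of quantiles, 82.3% of the mRNAs past the criteria were higher in MT, against 62.0% in the main setting, while the direction of each of the 9 RGS mRNAs stayed the same. No RGS member passed an adjusted p of 0.05, which 0.232% of mRNAs did, and in none did the MT and NS values lie fully apart, as they did in 5.78% of mRNAs. At an unadjusted P of 0.05, 16.8% of all mRNAs passed in limma, and of the members Rgs1 and Rgs3 did. The difference was below 0 in 6 members and above 0 in 3, with a median of -0.05 against a median of -0.02 over all mRNAs tested. In the fit without the slide, the 95% confidence intervals of 7 members excluded a change of 1.5-fold or more in either direction. Those of Rgs1 and Rgs8 did not. With the slide as a fixed block the standard error was larger for every member but Rgs3. It went from 0.29 to 0.58 for Rgs1, from 0.12 to 0.21 for Rgs9 and from 0.15 to 0.23 for Rgs10. No intervals were computed in that fit. Read as a log2 fold change above 1.5, as the methods word it, the criterion was met by no member.

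**Figure D1:**
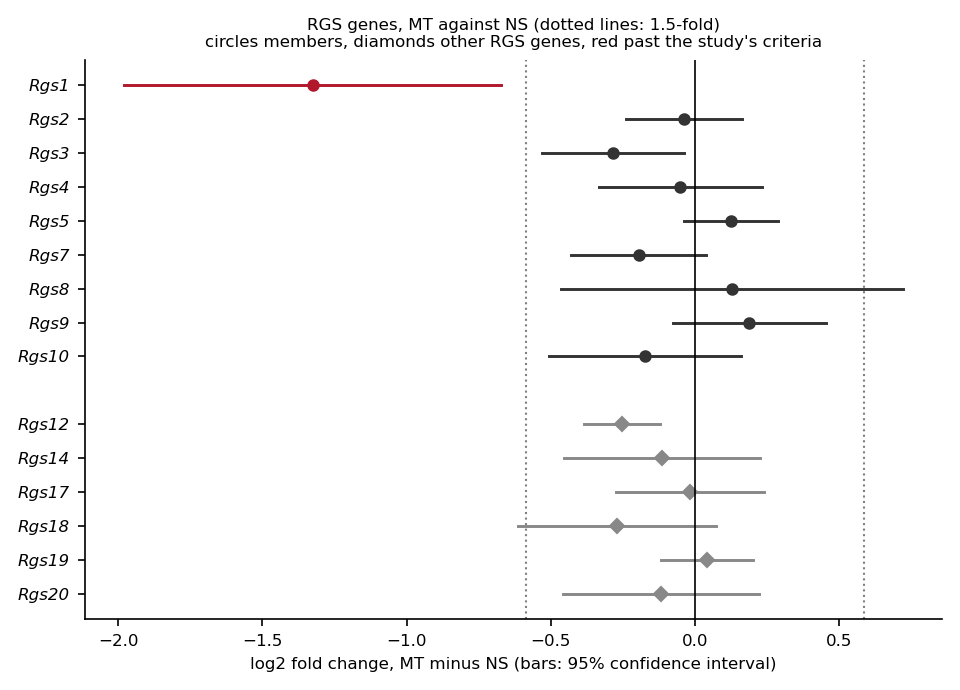
Log2 fold change of MT minus NS (horizontal axis) for the 9 RGS members (circles) and the 6 other RGS genes tested (diamonds), with 95% confidence intervals as bars and dotted lines at a 1.5-fold change. In this fit without the slide, Rgs1 lies at -1.33 with an interval wholly beyond the lower line, and every other point lies between the dotted lines.

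Rgs1 encodes a small R4 protein best known from lymphocytes and other leukocytes, where it limits signalling of chemokine receptors that couple to inhibitory G proteins, and it is also expressed by microglia. In GRCr8 the gene lies on the minus strand of chromosome 13, from 58568844 to 58573187. Its log2 level in MT rats 1 to 5 was 8.78, 8.42, 9.29, 8.28 and 8.41. In NS rats 6 to 10 it was 9.56, 10.80, 10.14, 10.08 and 9.25. The groups touched at 1 point, since MT rat 3 lay just above NS rat 10, and the other 4 MT rats lay below every NS rat. The mean was 8.64 ± 0.41 (SD, n = 5) in MT and 9.96 ± 0.60 (SD, n = 5) in NS.

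The log2 fold change of Rgs1 was -1.33 with a standard error of 0.29, which corresponds to a level 2.51-fold lower in MT, with a 95% confidence interval from 1.59-fold to 3.95-fold. The adjusted p in limma was 0.0988. An exact two-sided permutation test over all assignments of 5 and 5 rats gave p = 0.0159. This test ignored the slides, so its p cannot tell a group difference from a slide difference. Only 4 of the mRNAs tested had a larger decrease, and Rgs1 ranked 164 by limma's P. Its spread within groups was wide, with an SD of 0.51 that exceeded that of most mRNAs (percentile 87.9). In bulk tissue, fewer cells that express a gene and less of its RNA in each cell cannot be told apart.

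**Figure D2:**
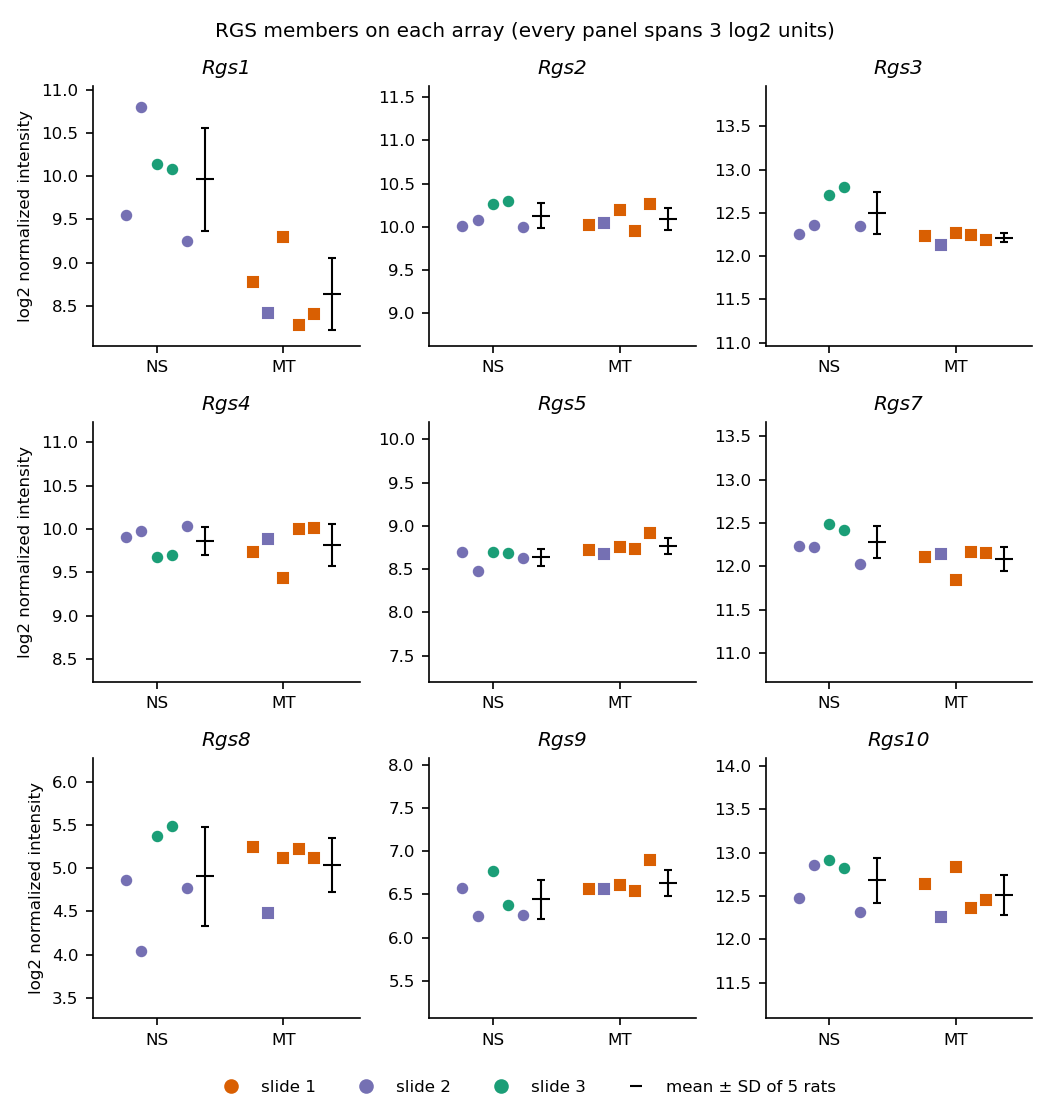
Quantile-normalized log2 intensity (vertical axis, 3 log2 units in every panel) of each RGS member in the NS rats (circles) and the MT rats (squares), in the order of the rat numbers from left to right, coloured by slide, with the mean ± SD of 5 rats beside each group. The groups stand apart in Rgs1 except for MT rat 3 and NS rat 10, and in Rgs3 the NS rats of slide 3 lie above all others.

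The Rgs1 difference had a like size within a slide and across slides. Within slide 2, which holds 1 MT rat, MT rat 2 lay 1.44 below the mean of the 3 NS rats, and the NS rats of slide 3 averaged 10.11 against 9.87 for those of slide 2. With the slide as a fixed block the log2 fold change of -1.44 is that same slide 2 contrast and not a separate check. Its standard error there was 0.58, against 0.29 without a block. The log2 fold change was -1.40 with the slide as a random block and -1.23 without the arrays of slide 3. Over all 21 alternatives its largest size was -1.50, when NS rat 10 was left out, and its smallest -1.12, when NS rat 7 was left out, and the study's criteria were met in each. The adjusted p was above 0.05 in all 21, with a range from 0.0625 to 1.00.

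**Figure D3:**
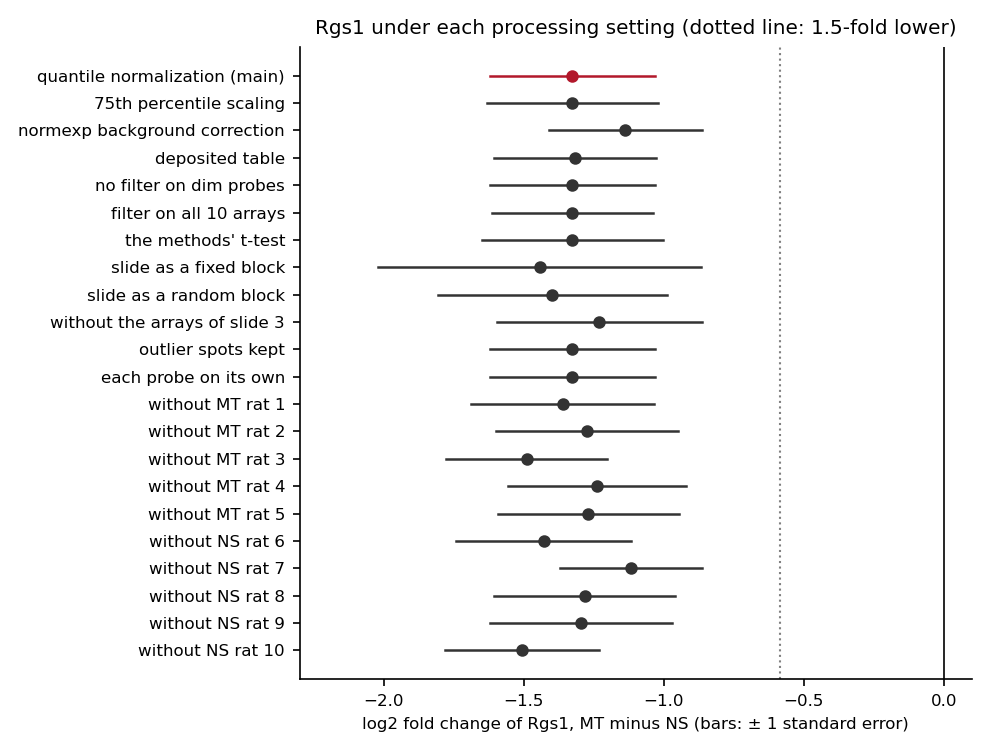
Log2 fold change of Rgs1 (horizontal axis, MT minus NS) under quantile normalization (red) and under each of the 21 alternatives, with bars of ± 1 standard error and a dotted line at a level 1.5-fold lower. All 22 points lie between -1.50 and -1.12.

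The chromosome 13 location allowed a comparison with neighbouring genes of the same subfamily. Rgs2 lies 216 kb from Rgs1 and Rgs18 470 kb on its other side, and Rgs13 and Rgs21, which lie in these gaps, had no matching probe. Of the 10 members 7 lie on this chromosome, among them Rgs5 and Rgs4 (51.7 kb apart) and Rgs8 and Rgs16 (22.1 kb apart). Against a log2 fold change of -1.33 for Rgs1 stood -0.04 for Rgs2 and -0.27 for Rgs18, and neither neighbour met the criteria.

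The 250 bases before the start of Rgs1 and of Rgs2 (RefSeq, GRCr8, both on the minus strand and printed in the sense of the gene) are given because these neighbours differed in their values. They span chr13:58573188-58573437 for Rgs1 and chr13:58352667-58352916 for Rgs2. Capitals mark TATAAA, the core of a TATA box, and GAGGAA, the purine-rich core recognised by ETS factors such as PU.1 of myeloid and B cells.
Rgs1: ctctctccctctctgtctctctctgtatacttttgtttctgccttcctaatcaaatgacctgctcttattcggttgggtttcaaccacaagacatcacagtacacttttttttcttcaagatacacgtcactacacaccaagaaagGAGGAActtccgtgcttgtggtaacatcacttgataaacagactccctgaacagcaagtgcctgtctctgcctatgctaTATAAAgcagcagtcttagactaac
Rgs2: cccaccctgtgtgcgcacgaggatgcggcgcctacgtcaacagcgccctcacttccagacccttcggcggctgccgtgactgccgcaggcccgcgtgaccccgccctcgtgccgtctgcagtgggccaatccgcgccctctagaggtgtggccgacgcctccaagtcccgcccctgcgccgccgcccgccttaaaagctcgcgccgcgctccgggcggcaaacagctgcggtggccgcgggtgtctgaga

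The Rgs1 window had a GC content of 42.8%, the lowest of the 10 members, and that of Rgs2 had 72.4%. Both strands were searched. TATAAA was found once in the Rgs1 window, with its first base 25 bases before the start, and not in that of Rgs2. It occurred in 3 of the 10 members (Rgs1, Rgs3 and Rgs4) and in 12.9% of 33469 promoter windows of the same length. GAGGAA was found once in the Rgs1 window, 104 bases before the start, in 4 of the 10 members and in 23.3% of all windows. TGACG, part of the element bound by CREB, was present in the windows of Rgs1, Rgs2, Rgs3 and Rgs4 and in 18.2% of all, and TGANTCA, the AP-1 element, was in none of the 10 and in 6.34% of all. The first base of TATAAA lay 184 bases before the start in Rgs3 and 42 bases before it in Rgs4. Each match is a match of letters only, and the part of any motif in the values was not tested.

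Among the other R4 members, Rgs2, which acts mainly on the Gq class, had values from 9.96 to 10.26 in MT and from 10.00 to 10.30 in NS. Its log2 fold change of -0.04 had a 95% confidence interval from -0.24 to 0.16 (adjusted p = 0.856 in limma), and it turned to 0.06 without the arrays of slide 3. Rgs4, a neuronal protein that acts on both the inhibitory and the Gq class and is among the most studied in opioid tolerance, ranged from 9.43 to 10.01 in MT and from 9.67 to 10.04 in NS. Its difference of -0.05 lay in an interval from -0.33 to 0.23. MT rat 3 had the lowest Rgs4 level, and without it the difference was 0.05, while without the arrays of slide 3 it was -0.17. For these members the groups overlapped along most of their range.

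Rgs3, which acts on inhibitory and Gq alpha subunits and exists as several isoforms, measured 12.23, 12.13, 12.27, 12.24 and 12.19 in MT rats 1 to 5. In NS rats 6 to 10 it measured 12.25, 12.36, 12.71, 12.80 and 12.35. The values above 12.7 belong to the NS rats of slide 3, while the remaining NS values, from 12.25 to 12.36, were at or just above the MT range. Its fitted log2 fold change was -0.28 ± 0.11 (SE), with an adjusted p of 0.258 in limma. The exact permutation p, which ignored the slides, was 0.0159. Without the arrays of slide 3 it was -0.11, and with the slide as a fixed block -0.19. The part of the slide in this difference was not tested further.

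Rgs5, known as a marker of pericytes and vascular smooth muscle, measured 8.73, 8.68, 8.75, 8.74 and 8.92 in MT rats 1 to 5. In NS rats 6 to 10 it measured 8.70, 8.47, 8.70, 8.69 and 8.62. In all, 4 of the 5 MT rats lay above the highest NS rat, yet the difference was small, at 0.13 with a 95% confidence interval from -0.04 to 0.29. The exact permutation p, which ignored the slides, was 0.0317 and limma's adjusted p was 0.416. Of the listed pericyte markers 7 of 8 were tested, with a median log2 fold change of 0.03, none past the criteria, and a summed level of 5790 to 6360 in MT and 5570 to 6080 in NS, on the linear intensity scale. Smooth muscle markers had a median of 0.39 over 4 genes, 1 of which passed the criteria, with summed levels of 5470 to 10500 in MT and 4790 to 6600 in NS. The part of either cell type in the Rgs5 values was not tested.

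Rgs8, a brain RGS protein known from cerebellar Purkinje cells, had the least settled difference. In MT rats 1 to 5 it measured 5.24, 4.49, 5.12, 5.22 and 5.11, and in NS rats 6 to 10 it measured 4.86, 4.05, 5.37, 5.49 and 4.77. Within each group the rats of slide 2 had the lowest values, at 4.49 in MT and a mean of 4.56 in NS, against means of 5.17 for MT on slide 1 and 5.43 for NS on slide 3. Its log2 fold change of 0.13 had an interval from -0.46 to 0.72, wide enough to contain a 1.5-fold increase. It was 0.39 under 75th percentile scaling, 0.48 without the arrays of slide 3, -0.08 with the slide as a fixed block and -0.02 with it as a random block, so neither a direction nor a size can be given at this precision.

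The R7 proteins act on inhibitory alpha subunits in neurons. Rgs7, the widely expressed neuronal member, ranged from 11.84 to 12.17 in MT and from 12.03 to 12.49 in NS, with a log2 fold change of -0.19 (interval -0.43 to 0.04, adjusted p = 0.383 in limma). With the slide as a fixed block, which is the contrast within slide 2, the difference was -0.01. Without the arrays of slide 3 it was -0.07. Rgs9, whose long form in striatum and spinal cord is known to restrain mu opioid receptor responses, measured 6.57, 6.56, 6.61, 6.54 and 6.89 in MT rats 1 to 5, and 6.57, 6.25, 6.78, 6.37 and 6.26 in NS rats 6 to 10. Its difference was 0.19 (interval -0.08 to 0.45, adjusted p = 0.452 in limma), and it was 0.32 under 75th percentile scaling and 0.28 without the arrays of slide 3, short of the fold criterion in both. MT rats lay within a narrow band apart from MT rat 5, and 3 of the 5 NS rats lay below that band.

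Rgs10, a small R12 protein of neurons, microglia and other immune cells that acts on inhibitory alpha subunits, measured 12.64, 12.26, 12.84, 12.36 and 12.45 in MT rats 1 to 5. In NS rats 6 to 10 it measured 12.48, 12.86, 12.92, 12.82 and 12.32. The highest MT value, again of rat 3, lay among the 3 high NS values. A log2 fold change of -0.17 was fitted, with an interval from -0.51 to 0.16 (adjusted p = 0.584 in limma), and it was -0.05 without the arrays of slide 3. The order of the rats was like that of Rgs1, with rat 3 highest in MT and rats 6 and 10 lowest in NS, but the group difference of Rgs1 was larger. Taken within each array, the log2 level of Rgs1 relative to Rgs10 was on average 1.15 lower in MT than in NS, with no overlap between the groups. These genes share an order of the rats, and the share of gene pairs that separate in this way was not counted. The lack of overlap is therefore not read as a separate result.

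Of 11 other RGS genes listed, 6 had a probe and were tested, and none met the criteria. Their median log2 fold change was -0.12, with 5 below 0. Rgs12, an R12 protein with a further motif for inactive alpha subunits, measured 10.01, 10.03, 10.06, 10.02 and 9.88 in MT rats 1 to 5, and 10.22, 10.31, 10.26, 10.25 and 10.22 in NS rats 6 to 10. Here the groups did not overlap, and the difference of -0.25 ± 0.06 (SE) was small, with an adjusted p of 0.110 in limma. Over the alternatives that adjusted p ranged from 0.0458, its only value under 0.05, to 1.00 with the slide as a fixed block. Over the 21 alternatives the Rgs12 difference ranged from -0.27 to -0.22. Rgs18, an R4 protein of platelets and other blood cells, ranged from 5.03 to 5.29 in MT and from 4.84 to 5.76 in NS, with a difference of -0.27 (adjusted p = 0.410 in limma) that became 0.0019 under 75th percentile scaling. Rgs14, Rgs17, Rgs19 and Rgs20 had differences from -0.12 to 0.04.

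Of the partners of the R7 proteins, Gnb5, Rgs7bp and Rgs9bp were tested, and none of the 3 met the criteria. Gnb5, the obligate beta subunit, differed by 0.02. Rgs7bp, the anchor that holds R7 complexes at the membrane, differed by 0.15 (adjusted p = 0.430 in limma) and by 0.04 without the arrays of slide 3. Rgs9bp, the anchor known from photoreceptors, differed by 0.30 (adjusted p = 0.670 in limma), with only 3 of the 5 NS arrays well above background. It alone met the criteria under other settings, at 0.68 with 75th percentile scaling and 0.70 without the arrays of slide 3, yet it was 0.02 without NS rat 10 and 0.06 with normexp background correction.

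The alpha subunits on which RGS proteins act were represented by 12 of 13 genes in 14 RNAs, and none met the criteria. Differences ranged from -0.24 to 0.28 with a median of -0.07. Gnao1, the alpha subunit that is most abundant in neurons, differed by 0.28 (adjusted p = 0.429 in limma) and by -0.01 with the slide as a fixed block. Gna12 differed by -0.21 without overlap between the groups, from 7.82 to 8.07 in MT and from 8.09 to 8.23 in NS (adjusted p = 0.197 in limma), and by -0.07 with the slide as a fixed block. Among the beta and gamma subunits 9 of 14 genes were tested with none past the criteria, and Gng10 at -0.20 and Gng8 at -0.17 had the smallest P. Of the receptor kinases and arrestins, all 7 genes were tested in 9 RNAs and none met the criteria. Grk4, a receptor kinase, ranged from 8.72 to 9.06 in MT and from 9.14 to 9.64 in NS with no overlap and a difference of -0.45 (adjusted p = 0.141 in limma), and Grk2, the kinase most tied to mu receptor desensitization, differed by -0.24. Both values moved with the slides, Grk4 to -0.26 with the slide as a fixed block and -0.28 without the arrays of slide 3, and Grk2 to 0.07 and -0.03. Among other modulators of alpha subunits, 6 of 8 genes were tested with none past the criteria, with Ric8a, an alpha subunit chaperone, at -0.18 and Gpsm3, a leukocyte protein that binds inactive alpha subunits, at -0.34 (-0.21 without the arrays of slide 3).

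**Figure D4:**
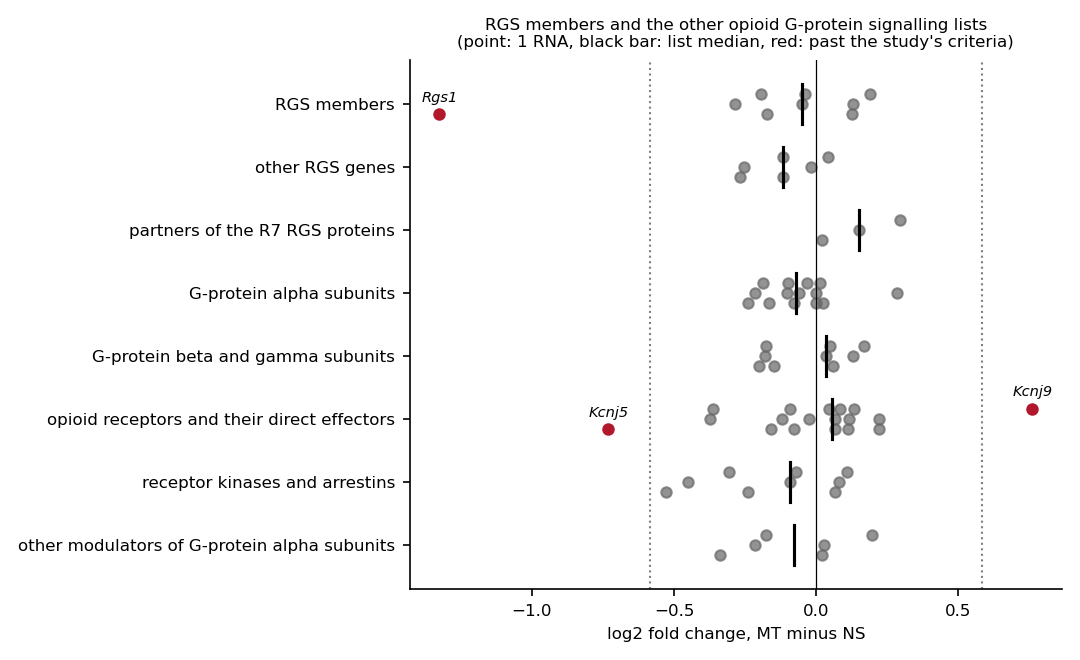
Log2 fold change of MT minus NS (horizontal axis) of each RNA tested in the RGS members and in 7 lists of opioid G-protein signalling genes, with a black bar at the list median, red points for RNAs past the study's criteria and dotted lines at a 1.5-fold change. Rgs1, Kcnj5 and Kcnj9 are the red points.

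Opioid receptors and their direct effectors were tested for 17 of 19 genes in 18 RNAs, with a median of 0.06, and 2 met the criteria in opposite directions. Both encode subunits of the G-protein-gated potassium channels that opioid receptors open. Kcnj9, also called GIRK3, measured 6.05, 5.96, 5.89, 6.22 and 6.03 in MT rats 1 to 5, and 5.68, 5.19, 4.87, 4.92 and 5.69 in NS rats 6 to 10, so the groups did not overlap. The log2 fold change was 0.76 ± 0.17 (SE), with an adjusted p of 0.106 in limma and 4 of the 5 NS arrays well above background. The lowest NS values were those of slide 3. Kcnj9 no longer met the criteria without that slide, at 0.51, with the slide as a fixed block, at 0.44, or with normexp background correction, at 0.32.

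Kcnj5, also called GIRK4, measured 8.27, 7.99, 8.61, 8.10 and 8.06 in MT rats 1 to 5, and 8.68, 9.16, 9.18, 9.14 and 8.52 in NS rats 6 to 10. MT rat 3 lay above NS rat 10, as in Rgs1, and the other MT rats lay below every NS rat. The log2 fold change was -0.73 ± 0.17 (SE), with an adjusted p of 0.106 in limma, and -0.58 without the arrays of slide 3, which falls just short of the 1.5-fold criterion. The subunits Kcnj3 and Kcnj6, which form the main neuronal channels, differed by 0.07 and 0.11. The receptor genes did not meet the criteria, with Oprm1 at -0.08 and -0.37 in its 2 RNAs, Oprd1 at 0.22, Oprk1 at 0.12 and Oprl1 at -0.03. The second Oprm1 RNA was well above background on only 4 MT and 2 NS arrays. Oprk1, the kappa receptor gene, was at 0.87 with the slide as a fixed block, a difference in which MT rat 2 alone stands for MT. It met the criteria in no other setting.

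The 5 mRNAs nearest to Rgs1 were Tmem119, Asb2, Cd22, Il16 and Cldn14. Nearness was the root mean square (RMS) difference, over the 10 arrays, between log2 levels centred on each gene's own mean, and it used the same arrays in which Rgs1 was chosen as the member past the criteria, so that a lower level in MT follows from it and is not a separate result. The RMS difference was 0.242 for Tmem119, 0.281 for Asb2, 0.330 for Cd22, 0.333 for Il16 and 0.335 for Cldn14, against a median of 0.825 over 13341 mRNAs with a value on every array. Tmem119, a marker of microglia, measured 11.77, 11.38, 12.08, 11.40 and 11.60 in MT rats 1 to 5, and 12.31, 13.22, 13.17, 13.18 and 12.54 in NS rats 6 to 10. As in Rgs1, rat 3 was highest in MT and rats 6 and 10 were lowest in NS. Asb2 encodes a ubiquitin ligase subunit, Cd22 a receptor of B cells and microglia, Il16 a chemoattractant cytokine and Cldn14 a tight junction protein, and their log2 fold changes were -1.12, -1.05, -0.87 and -1.22.

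**Figure D5:**
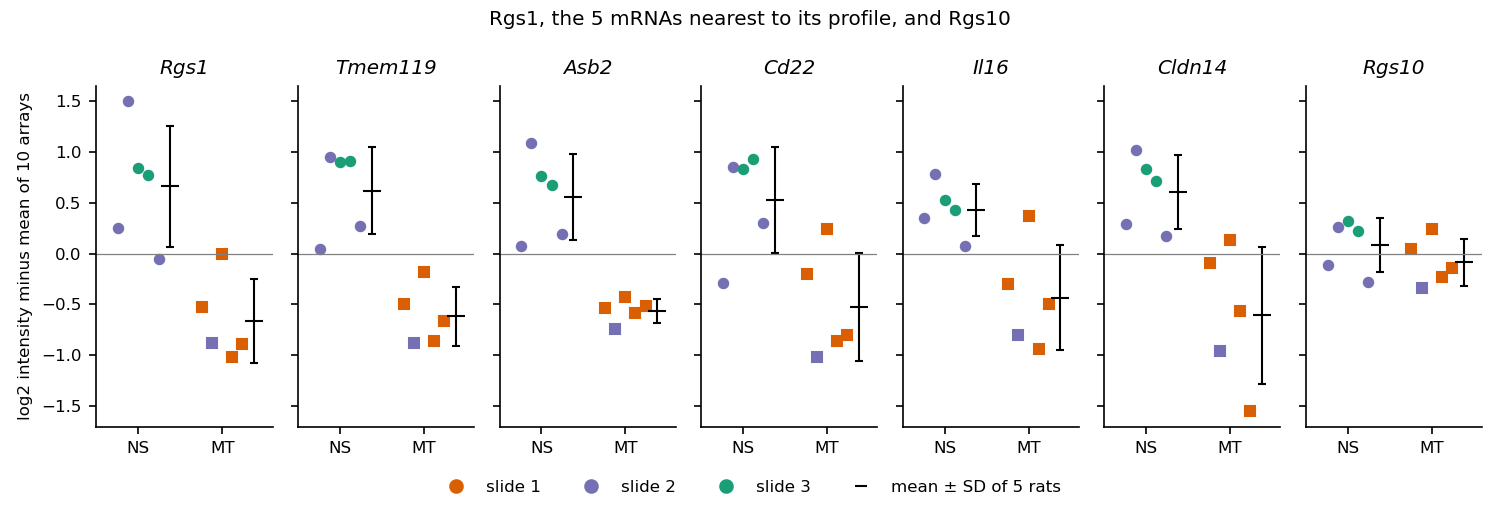
Log2 intensity minus the mean of the 10 arrays (vertical axis, shared scale) of Rgs1, of the 5 mRNAs with the smallest RMS difference from it and of Rgs10, in NS rats (circles) and MT rats (squares) in the order of the rat numbers, coloured by slide, with the mean ± SD of 5 rats. MT rat 3 is the highest MT rat in every panel, and Rgs10 spans a narrower range than the others.

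Because Rgs1 is expressed by microglia and by B cells, markers of these cells were set beside it. Of 10 homeostatic microglia markers 9 were tested, 8 were lower in MT and 2 met the criteria (Tmem119 at -1.24 and Gpr34, a receptor for lysophosphatidylserine, at -0.63). The median was -0.34, and the summed level of the list was 57100 to 62700 in MT and 66300 to 89600 in NS on the linear scale, with no overlap. All 9 tested markers were well above background on all 10 arrays. The median was -0.25 under 75th percentile scaling, -0.23 with normexp and -0.27 without slide 3, with 8 of 9 markers lower in each, though only 1 met the criteria without slide 3. Of the general microglia and macrophage markers, all 13 RNAs of 9 genes were lower, 1 met the criteria (Trem2, a lipid receptor, at -0.72) and the summed level was 121000 to 177000 in MT and 148000 to 233000 in NS. Without slide 3 none of the 13 met the criteria and the median was -0.18, against -0.27 with it.

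Relative to the mean of the homeostatic markers on the same array, Rgs1 was on average 0.91 lower in MT than in NS on the log2 scale, with overlapping groups. Relative to Tmem119 alone, Rgs1 was on average 0.09 lower in MT, also with overlapping groups. Tmem119 is the mRNA nearest to Rgs1 on these same arrays, so a small difference follows from that and is not a separate result. Of 8 B cell markers 4 were tested, with 2 past the criteria and lower in MT (Cd22 at -1.05 and Cd79b at -0.89, the latter well above background on 5 arrays), and a summed level of 134 to 269 in MT and 185 to 369 in NS. The other 2 were Pax5 at 0.23 and Blk at -0.27, neither past the criteria. The B cell median of -0.58 was -0.11 with normexp, -0.22 under 75th percentile scaling and -0.14 without slide 3, with 1 marker past the criteria in each and 2 of 4 lower in the last pair. The B cell marker Cr2 was well above background on 0 arrays, and Cd79a and Ms4a1 had no matching probe. Of 11 neutrophil markers 7 were tested, 6 were higher in MT and 3 met the criteria, with a median of 0.64 and a summed level of 3620 to 5290 in MT and 2960 to 5970 in NS. That median was 0.29 with normexp and 0.99 under 75th percentile scaling, where 5 met the criteria. The neutrophil markers Ngp and Cxcr2 were well above background on only 5 and 7 arrays. With the filter on all 10 arrays 5 neutrophil markers remained, of which 4 were higher in MT and 3 met the criteria. In 12 other marker lists the median lay between -0.09 and 0.39, with no RNA past the criteria and lower in MT and 4 past them and higher. Of these RNAs 3 were of dorsal root ganglion markers and 1 of smooth muscle. The ganglion list held 7 RNAs of 5 genes, so its 3 RNAs need not be 3 genes. The part of microglia, B cells or neutrophils in the Rgs1 difference was not tested.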

How the data were processed

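The authors labelled RNA of 5 MT and 5 NS lumbar cords and hybridized it to 1 one-colour lncRNA array per rat. The authors extracted the spots with Agilent Feature Extraction 11.0.1.1, per the submitters' processing notes, and deposited each spot's background-subtracted intensity on a linear scale. They also deposited a table of quantile-normalized log2 values, which correlated across probes with those used here at a Pearson r of 0.993 to 0.999 on each array. No column of another sample was present.

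From the deposited intensities, log2 values were made and normalized by quantiles (R 4.3.3 with the packages limma 3.58.1 and, in version 1.17.8, data.table). Spots marked as outliers were dropped, and the spots of a probe and the probes of an accession were averaged. An RNA entered the test when over 50% of the spots of a probe stood well above background on 5 or more arrays, and all 9 members with a probe passed. MT was compared with NS by limma's moderated linear model on all 10 arrays, with Benjamini-Hochberg adjustment over all RNAs tested. Single values were also compared by exact permutation, which ignored the slides. The fit was tested on simulated data. Of 15313 mRNA accessions, 14264 were named through RefSeq. The array was designed on an older build (rn4), so positions are those of the gene or promoter in RefSeq's GRCr8. The figures used matplotlib 3.10.9 and Python 3.11.15.

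All members were named. From each of the 7 signalling lists, up to 4 genes past the criteria were named, or otherwise the 2 with the smallest P, and the 5 mRNAs nearest to each member past the criteria. Other genes named with values fall outside this rule. The members, lists, markers and motifs were chosen with earlier results of these data known. Of the 16 marker lists, the 12 given by their range (pericyte and smooth muscle also by their own values) were T cell, erythrocyte, pericyte, smooth muscle, endothelial, neuron, motor neuron, oligodendrocyte, astrocyte, dorsal root ganglion, meningeal fibroblast and skeletal muscle.

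The alternatives were 75th percentile scaling, normexp background correction with an offset of 50 (on the median signal, since no mean signal column was used here), the deposited table, no filter on dim probes, a filter on all 10 arrays, the methods' Student test, the slide as a fixed or a random block, leaving out slide 3, keeping outlier spots, each probe on its own, and leaving out each rat.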

Additional observations from a re-analysis of the deposited data

Results flagged for a closer look

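In groups of 5 rats, 4 of 56 tested held a value that stood far from the other 4, and chance alone gives about 1 in 20. All 4 were in MT and in RGS genes, but a count so near that share is not read as a trait of either. Rgs7 was at 11.84 in MT rat 3, against 12.11 to 12.17 in the others. Rgs8 was at 4.49 (4.485) in MT rat 2, the only MT rat on slide 2, against 5.11 to 5.24. Rgs9 was at 6.89 (6.895) in MT rat 5, against 6.54 to 6.61. Rgs12 was at 9.88 in MT rat 5, against 10.01 to 10.06.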

How the results depend on the processing

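Rgs1 met the study's criteria, and no RGS member passed an adjusted p of 0.05, in the main setting and in all 21 alternatives. The direction of Rgs1, Rgs3, Rgs5, Rgs7, Rgs9 and Rgs10 was the same in all of them. With the slide as a fixed block, the difference is only that of MT rat 2 against NS rats 6, 7 and 10. The log2 fold change was then 0.0045 for Rgs2, -0.076 for Rgs8, -0.010 for Gnao1 and 0.068 for Grk2. With the slide as a random block it was -0.025 for Rgs8. Without the arrays of slide 3 it was 0.061 for Rgs2, and under 75th percentile scaling 0.0019 for Rgs18. Leaving out 1 rat at a time gave -0.080 to 0.0037 for Rgs2 (highest without NS rat 9), -0.10 to 0.045 for Rgs4 (highest without MT rat 3) and -0.087 to 0.27 for Rgs8 (lowest without NS rat 7). The number of members whose groups did not overlap was 0 in the main setting, against 5.78% of all mRNAs. It was 1 under 75th percentile scaling (Rgs5), 1 with normexp (Rgs3) and 0 to 2 when 1 rat was left out. Rgs1 was among them without MT rat 3 or NS rat 10, which follows because only these rats overlapped. The share of all mRNAs was not counted in these settings, so the counts are not read as results about the members. The number of R7 partners past the criteria was 1, not 0, under 75th percentile scaling and without slide 3 (Rgs9bp in both). The number of receptors and effectors past the criteria, 2 in the main setting, was 1 with normexp and 1 with the filter on all 10 arrays (Kcnj5 in both) and 0 without slide 3. It was also 2 with the slide as a fixed block, but there Oprk1 (0.87) stood in place of Kcnj9 (0.44). The cause of these changes was not tested, except that the filter on all 10 arrays removed Kcnj9 from the test. The methods' Student test gave 273 mRNAs past the study's criteria, Rgs1 alone among the members, and 46 at an adjusted p below 0.05, Rgs12 (0.0458) among them. Over all mRNAs, 504 met the criteria under 75th percentile scaling and 150 with normexp, against 347 in the main setting, and 530 without a filter on dim probes. With slide blocks 218 (fixed) and 224 (random) met them, and 0 passed an adjusted p of 0.05. No paired analysis was possible because the MT and NS rats carry different numbers. Each member rests on 1 spot per array, 5 rats per group limit the precision, and signal over background limits the dim probes, Rgs8 among the members.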
